A study of Mus musculus with 10 samples.

Results

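The 10 genes Ybx2, Ybx3, Pabpc1, Pabpc2, Paip2, Tarbp2, Elavl1, Boll, Ddx25 and Cpeb1 encode proteins that bind, store and translate messenger RNA in male germ cells. They were taken by name from 16082 known mRNA genes that the libraries listed, and the RefSeq transcripts of each gene were summed. RNA was sequenced from 4 control sperm pools, 2 cadmium sperm samples, 2 control testes samples and 2 cadmium testes samples of mice labelled as C57BL/6 and 3 to 5 months old (the study's methods name C57BL/6J and give a different age range). Cadmium mice had received a single intraperitoneal dose of CdCl2 at 3 mg/kg and were killed on day 35, and control mice had received saline. Each control sperm pool held the sperm of many mice, so that a pool gives no spread between animals. By the study's methods the control testes came from the mice that gave the control pools, so these groups share animals, and which mice went into which sample is not given in the sources used here. Sperm had swum out of the caudal epididymis and vas deferens and had been treated with a lysis buffer that removes somatic cells, whereas testes were whole tissue holding all stages of germ cell and the somatic cells around them.

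In elongating spermatids the nucleus is compacted and transcription stops, so messenger RNAs needed late are made early, packed with protein and held untranslated until they are used. The Y-box proteins Ybx2 and Ybx3 are the main packing proteins of these stored particles, and poly(A)-binding proteins, the Pabp inhibitor Paip2, the helicase Ddx25 and the 3'-end binding proteins Cpeb1 and Boll act on when the stored messages are translated. Mature sperm are generally held to translate little, and their RNA to be mostly carried over from earlier stages. The study proposes that sperm might keep some transcription and translation.

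The Y-box proteins take their name from a promoter element that holds the letters ATTGG, the reverse complement of the CCAAT box. The stretch just before the annotated start of both Y-box genes is shown because these genes carry most of the signal described here. Letters in capitals mark CCAAT or ATTGG. The sequences are from RefSeq's tables for GRCm38, read along the strand of the gene, at chr11:69935649-69935804 on the plus strand for Ybx2 and at chr6:131388451-131388700 on the minus strand for Ybx3.
Ybx2: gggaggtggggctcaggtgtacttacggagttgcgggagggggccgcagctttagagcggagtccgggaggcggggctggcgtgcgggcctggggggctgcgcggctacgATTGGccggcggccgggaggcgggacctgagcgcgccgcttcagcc
Ybx3: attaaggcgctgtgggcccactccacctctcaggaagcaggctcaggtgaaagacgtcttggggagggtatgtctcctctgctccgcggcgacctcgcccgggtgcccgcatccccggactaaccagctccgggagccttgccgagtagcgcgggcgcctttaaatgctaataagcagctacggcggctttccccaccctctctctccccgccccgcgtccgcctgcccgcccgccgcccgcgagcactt
The Ybx2 stretch of 156 bases held 1 match and the Ybx3 stretch of 250 bases held 0. Of the 9 promoter windows listed for 7 of the 10 genes, windows of 5 genes held a match on one strand or the other (Boll, Ddx25, Elavl1, Tarbp2 and Ybx2). Among all 32851 windows of 250 bases before and 50 after a start, 37.4% held one. That share is counted by window and the 5 by gene, and Boll and Ybx2 each had a further window without a match. A match of these letters is a description of the sequence and not a binding site.

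The libraries differed in depth. Expected counts, the estimated numbers of fragments per transcript, summed to between 366455 and 1058017 in the control sperm pools, 1155491 and 1254477 in cadmium sperm, and between 2606086 and 2866856 in the 4 testes libraries. Scaled to the library total as CPM, a floor of 3 counts in 1 library stood at 2.39 to 8.19 CPM in sperm and at 1.05 to 1.15 in testes. Intervals and floors cover counting error only. Over the better counted genes, libraries of the same group differed with a chi-square per degree of freedom of 9.63 to 16.6. Counting error alone would give about 1, so the intervals are too narrow for the spread between libraries. Transcripts of known mRNAs took between 9.14 and 13.6% of the counts of a library. Of 7 sperm and spermatid markers, 6 were listed in sperm, and their FPKM (fragments per kilobase of transcript, scaled to library size) summed to between 234 and 465 in the control pools and 467 and 572 in testes. The 6 spermatocyte markers listed anywhere were all at 0 in the 4 control pools and summed to between 0 and 3.18 in cadmium sperm, from Sycp3 in 1 library, against 2.40 to 6.46 in testes. Leukocyte markers summed to at most 0.62 in the control pools and to 1.70 and 4.85 in cadmium sperm, with Ptprc at 0 in every control library. Spermatogonium markers summed to 0.43 to 3.75 in sperm and 20.4 to 28.4 in testes, where Gfra1 alone gave 19.2 to 27.0. In the control pools the whole sum was Gfra1. The other markers of this list had no common direction. Stra8 was at 0 in sperm and 0.52 to 1.24 in testes, whereas Uchl1 had 1.56 and 0.72 in cadmium sperm and at most 0.34 in testes. Of 7 epididymal epithelium markers 5 were listed in sperm, and they summed to 4.17 to 13.0 in the control pools, 9.98 and 10.3 in cadmium sperm and 5.96 to 12.4 in testes. Among them Krt18 was called higher in sperm in both comparisons with testes (adjusted p = 0.0497 and 0.000844) on at most 5 counts a library, and Crisp1 had 4 counts in each cadmium sperm library, 1 and 3 in cadmium testes and 0 in the control libraries. The other epididymal markers were mixed. Krt8 had log2 fold changes of -1.42 in controls and -1.76 in the cadmium libraries, and Epcam of -0.69 and 0.75, none of them called. Lcn5 and Defb20 were listed in cadmium testes 2 alone, and Cdh1 in cadmium sperm alone. The part of epididymal RNA in the results was not tested. Sertoli cell markers reached 14.8 in control sperm 1, all from Amhr2, and Leydig cell markers reached 27.5 in control sperm 3, all from Star, where testes gave 0.30 to 3.38 and 15.6 to 22.2. The study set aside the first control pool. Its values are given here, and the tests leave it out.

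Ybx2 and Ybx3 held between 81.5 and 100% of the FPKM of the 10 genes in each library. Both were lower in every sperm library than in any testes library. Pabpc1, Pabpc2 and Paip2 also lay below every testes library, at far lower levels. Over the 4 testes libraries Pabpc1 stood at 4.26 CPM, Paip2 at 3.72 and Pabpc2 at 7.98. The floors of control sperm 1, 3 and 4 were 7.07, 8.19 and 5.90 CPM. Zeros of Pabpc1 and Paip2 in those pools, and of Pabpc2 in control sperm 3, therefore show no lower level by themselves. The remaining 5 genes overlapped between sperm and testes. The 5 of 10 genes that lay below testes throughout compare with 18.5% of all 16082 known mRNA genes in which all 6 sperm libraries lay below all 4 testes libraries. The part of depth in that count of genes was not tested. In bulk RNA, fewer cells of a type and less RNA per cell cannot be told apart.

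**Figure D1:**
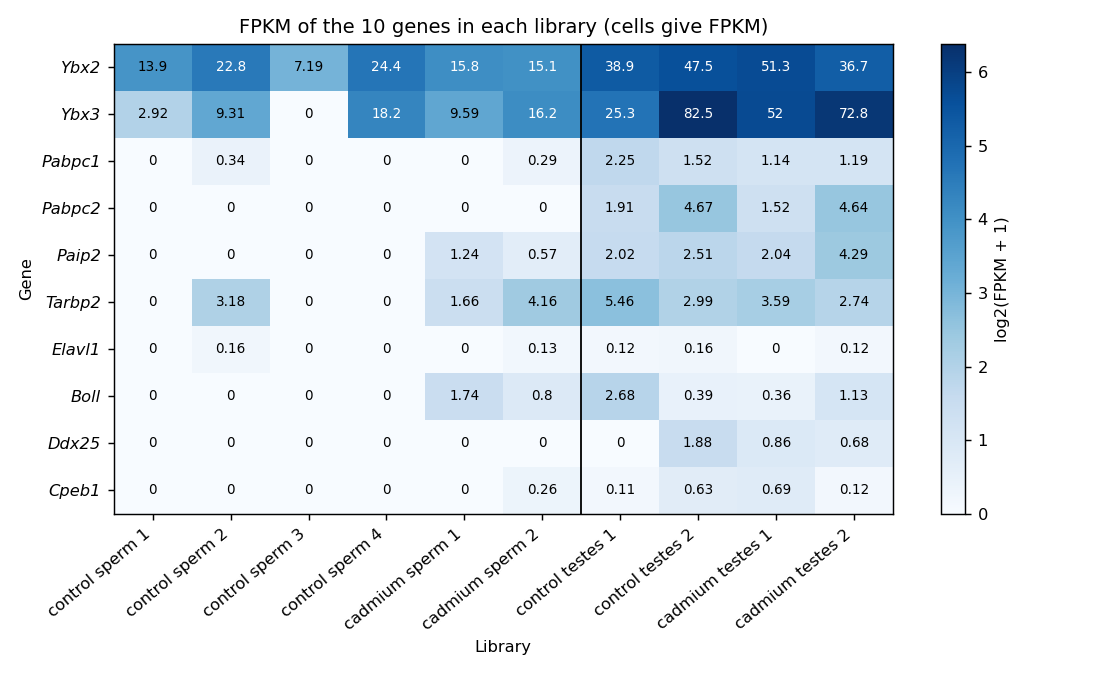
FPKM of each of the 10 genes (rows) in each library (columns, sperm to the left of the line), with the value written in the cell and the shade giving log2(FPKM + 1). Ybx2 and Ybx3 are the only genes above 5.46 FPKM in any library.

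Ybx2, the germ-cell Y-box protein also known as MSY2, was listed in all 10 libraries. Its FPKM were 13.9, 22.8, 7.19 and 24.4 in control sperm 1 to 4 and 15.8 and 15.1 in cadmium sperm. In testes they were 38.9 and 47.5 in controls and 51.3 and 36.7 after cadmium. The highest sperm library therefore lay below the lowest testes library, while control and cadmium values overlapped within each tissue. Control sperm averaged 17.1 ± 8.06 FPKM (SD, n = 4) and control testes 43.2 ± 6.07 (SD, n = 2). In CPM, Ybx2 was 2.11 times as abundant in control testes as in the 3 tested control pools, with a 95% counting interval of 1.60 to 2.82.

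The edgeR fit gave Ybx2 a log2 fold change of -1.41 ± 0.89 (SE) in control sperm against control testes, with an adjusted p of 0.253. The median over all 24432 genes tested was -1.24, so that Ybx2 differed from that median by -0.16. In cadmium sperm against cadmium testes the log2 fold change of Ybx2 was -1.24 ± 0.55 (SE, adjusted p = 0.0720), where the median of all genes was -0.30. Ybx2 did not pass the test in either comparison. In the cadmium libraries it passed with limma on log2(FPKM + 1) and log2(FPKM + 0.1) (adjusted p = 0.0431 and 0.0429), with known mRNA genes only (0.0140) and with the replicate block (0.0399), and its adjusted p reached 0.239 without cadmium sperm 2. In controls the adjusted p lay between 0.152 and 0.969 over all alternatives.

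Ybx3, a second Y-box protein (MSY4), had FPKM of 2.92, 9.31, 0 and 18.2 in control sperm 1 to 4 and of 9.59 and 16.2 in cadmium sperm. In testes it had 25.3 and 82.5 in controls and 52.0 and 72.9 after cadmium. Its sperm values varied more than those of Ybx2, and control sperm 3, the shallowest library, listed none. Control sperm averaged 7.61 ± 8.07 FPKM (SD, n = 4) and control testes 53.9 ± 40.4 (SD, n = 2), the largest SD in FPKM between testes replicates among the 10 genes. Relative to the mean, the control testes SD was larger for the scarce genes Ddx25 (0.94 ± 1.33), Boll (1.535 ± 1.62) and Cpeb1 (0.37 ± 0.368). The ratio of Ybx3 to Ybx2 FPKM was between 0 and 1.07 in the sperm libraries and between 0.649 and 1.99 in the testes libraries, so the order of these 2 genes was not the same in every library.

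Ybx3 was lower in sperm by the test in both comparisons. Its log2 fold change was -2.81 ± 0.93 (SE, adjusted p = 0.0384) in control sperm against control testes and -2.09 ± 0.57 (SE, adjusted p = 0.00167) in cadmium sperm against cadmium testes. Measured from the median of all genes it stood at -1.57 and -1.79. In CPM the control testes held 5.40 times as much (95% counting interval 3.75 to 8.04) and the cadmium testes 4.88 times as much (3.66 to 6.64). The control call was lost without control sperm 2 or 4 or control testes 2, with DESeq2, with limma on log2(FPKM + 1) or log2(FPKM + 0.1), with upper-quartile scaling and without the filter on low values, with adjusted p between 0.0114 and 0.965 over all alternatives. The cadmium call was lost without cadmium sperm 1 or either testes library, where the highest adjusted p was 0.0776.

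**Figure D2:**
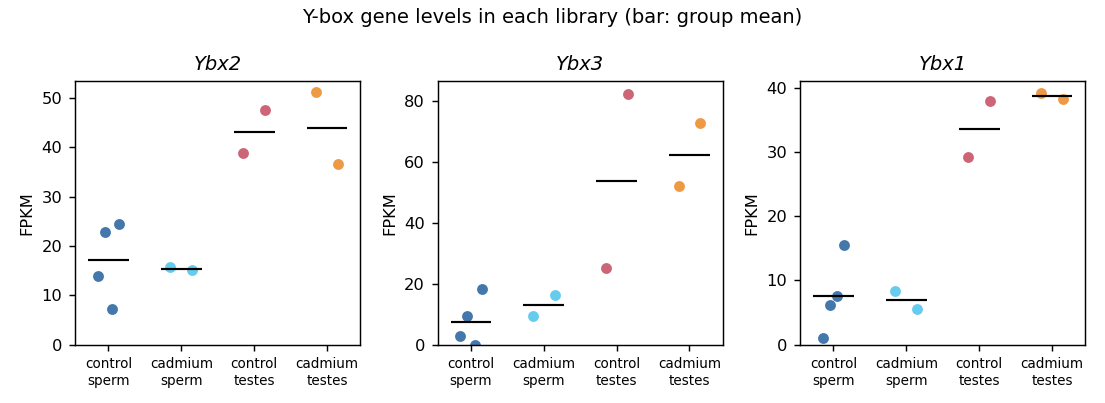
FPKM of the Y-box genes Ybx2, Ybx3 and Ybx1 in each library (points) by group (horizontal axis), with a bar at the group mean. For all 3 genes the highest sperm library lies below the lowest testes library, 24.4 against 36.7 FPKM for Ybx2.

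The general Y-box gene Ybx1, of the list of related genes, followed the same order, with 1.09 to 15.5 FPKM in the 6 sperm libraries and 29.2 to 39.1 in testes. Its log2 fold change was -2.07 (adjusted p = 0.0911) in controls and -2.26 (adjusted p = 0.000773) in the cadmium libraries, where the call was lost without cadmium sperm 2 (0.0568) or cadmium testes 1 (0.0716). It was chosen for mention after its values were seen.

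The RefSeq transcripts of Ybx3 differed between the tissues. NM_139117, which is 207 bases longer than NM_011733, was listed in all 4 testes libraries and in no sperm library. It took 44.5 of 122 counts in control testes 1, 53.5 of 352 in control testes 2, 65.5 of 246 in cadmium testes 1 and 89.1 of 328 in cadmium testes 2, or between 15.2 and 36.5% of the Ybx3 counts. In sperm, all 2, 16, 15, 18 and 33 counts of the 5 libraries that listed Ybx3 were given to the shorter transcript.

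Together 0 of 84 sperm counts came from the longer transcript, which allows a share of up to 3.57%, against 24.1% in testes. Single libraries were less informative, with upper limits of 18.8 and 20.0% in control sperm 2 and 4 and of 16.7 and 9.09% in cadmium sperm, so that the lowest testes share of 15.2% lay under 3 of these 4 limits. Among the libraries with at least 10 Ybx3 counts, 4 of sperm and 4 of testes, the shares differed with an exact permutation p of 0.0286 (two-sided), the smallest that 4 against 4 can give. That test pools control and cadmium libraries and takes each sperm share of 0 as exact. It was added after the pattern was seen, so its p lends no support. The division of fragments between the transcripts is an estimate, whose part in this difference was not tested.

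**Figure D3:**
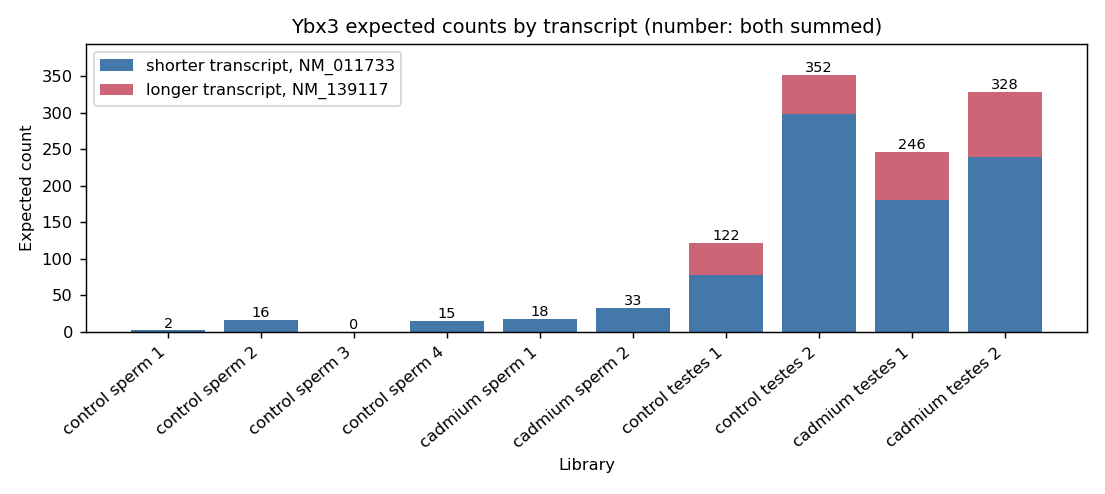
Expected counts of Ybx3 in each library (bars), divided into the shorter transcript (blue) and the longer one (red), with the sum above each bar. The longer transcript appears in the 4 testes libraries and in none of the 6 sperm libraries, where the whole gene has at most 33 counts.

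Among the poly(A)-binding proteins, Pabpc1 binds poly(A) tails and links them to translation, and Pabpc2 is its testis-expressed paralog. Pabpc1 had 0.34 FPKM in control sperm 2, 0.29 in cadmium sperm 2 and 0 in the other 4 sperm libraries. Its testes values were 2.25 and 1.52 in controls and 1.14 and 1.19 after cadmium. Each of the 2 sperm values is 1 count. Pabpc1 was 10.2 times as abundant in CPM in control testes as in the tested control pools, with a counting interval from 1.70 to 418, and edgeR did not call it (adjusted p = 0.144). Both limma alternatives did (adjusted p = 0.0120 and 0.0399), and without control sperm 2 the pools were all at 0 and its adjusted p was 0.0654.

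Pabpc2 was at 0 in all 6 sperm libraries. Control testes had 1.91 and 4.67 FPKM and cadmium testes 1.52 and 4.64. Replicates thus differed more than the treatments did, and the testes libraries numbered 2 were the high ones. Over the group, a floor of 3 counts in sperm puts Pabpc2 5.30-fold lower in control sperm than in control testes. In cadmium sperm against cadmium testes the value is 6.22-fold. Both values take the testes counts as exact and leave out the spread between libraries. The fits called Pabpc2 lower in both comparisons (adjusted p = 0.0472 and 0.00137), and without either cadmium testes library it no longer entered the cadmium test.

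Paip2, which binds poly(A)-binding protein and holds back translation, was at 0 in the 4 control pools and had 1.24 and 0.57 FPKM in cadmium sperm. Control testes had 2.02 and 2.51 FPKM and cadmium testes 2.04 and 4.29. The cadmium sperm values rest on 2 and 1 counts, in libraries deeper than any control pool. Over the group, a floor of 3 counts in sperm puts Paip2 2.001-fold lower in control sperm than in control testes. That value takes the testes counts as exact and leaves out the spread between libraries. The fit called Paip2 lower in controls (adjusted p = 0.0472). In the cadmium libraries, testes held 3.47 times the CPM (95% counting interval 1.05 to 18.0) and the fit gave an adjusted p of 0.277. The control calls of Pabpc2 and Paip2 were lost without control sperm 2 or 4 (adjusted p at most 0.174). That of Paip2 was also lost without control sperm 3 (0.112) and in 1 model over 9 samples. Both were lost with DESeq2, upper-quartile scaling, no filter on FPKM, and control sperm 1 added with the replicate block. Over all alternatives the adjusted p reached 0.664 for Pabpc2 and 0.792 for Paip2. Neither gene entered the test without either control testes library. Pabpc1, Pabpc2 and Paip2 entered the control test through the testes libraries alone, as did Pabpc1 and Pabpc2 in the cadmium test, so that a count of calls among them says little.

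Across the 10 genes, the control comparison of sperm with testes tested 6, of which 3 were called lower (Ybx3, Pabpc2 and Paip2) and 0 higher. Of the 24432 genes tested in all, 21.9% were called in either direction and 17.7% were lower in sperm. Boll, Ddx25, Cpeb1 and Elavl1 were not tested because fewer than 2 of the libraries compared reached 1 FPKM. With upper-quartile scaling the median of all genes moved from -1.24 to -0.38 and the calls from 1020 higher and 4333 lower to 284 higher and 80 lower, with 0 of the 10 genes called. DESeq2 called 0 as well. All 6 genes kept a negative log2 fold change in every alternative in which they were tested. For Pabpc2 and Paip2, at 0 in all control pools, no other direction was possible. Pabpc1 entered the test through testes alone, so its direction says little either.

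In cadmium sperm against cadmium testes 7 of the 10 genes were tested and 2 were called, both lower (Ybx3 and Pabpc2). Of 25780 genes tested, 31.6% were called and 15.4% were lower in sperm. Pabpc2 had to differ there, since it passed the filter through testes alone. The 2 comparisons of sperm with testes use different libraries, and Ybx3 was called in each.

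**Figure D4:**
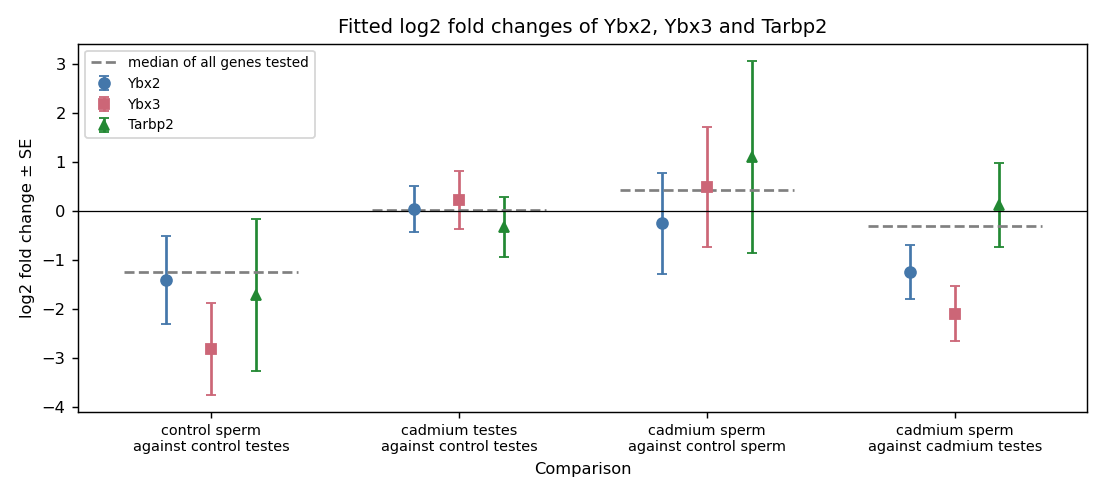
Fitted log2 fold changes (vertical axis) with their standard errors for Ybx2, Ybx3 and Tarbp2 in 4 comparisons (horizontal axis), with the median of all genes tested as a dashed line. In both comparisons of sperm with testes Ybx3 lies below the median of all genes, by 1 standard error or more, and in both cadmium comparisons within a tissue the error bars of the 3 genes reach 0.

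Tarbp2 binds double-stranded RNA and is a partner of Dicer, and it is also needed for the timely translation of protamine messages. Its FPKM were 3.18 in control sperm 2, 0 in the other 3 control pools, and 1.66 and 4.16 in cadmium sperm. In testes it had 5.46 and 2.99 in controls and 3.59 and 2.74 after cadmium. Control sperm 2 was the deepest control pool, and cadmium sperm 2 exceeded 3 of the 4 testes libraries. Among the 7 genes tested in cadmium sperm against cadmium testes, Tarbp2 had the smallest difference, with a log2 fold change of 0.13 ± 0.86 (SE, adjusted p = 0.932). In controls it had -1.70 ± 1.55 (SE, adjusted p = 0.445). The control value rested on control sperm 2: without that pool the others were all at 0 (adjusted p = 0.0654), and without control sperm 3 or 4 it was -1.01 or -0.99. The counting interval of the ratio of cadmium testes to cadmium sperm, in CPM, ran from 0.533 to 2.46. Both RefSeq transcripts of Tarbp2 were listed in testes and in cadmium sperm 1, in shares that ranged from 25.3 to 75.6% for NM_001253795 in testes. Control sperm 2 and cadmium sperm 2 gave all their 5 and 7.74 counts to NM_001253795, the shorter transcript. So few counts allow the longer one a share of up to 60 and 38.8% there.

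Ddx25, the germ-cell helicase GRTH that takes part in export and translation of messages of the spermatid, was at 0 in all 6 sperm libraries. In testes it had 0 and 1.88 FPKM in controls and 0.86 and 0.68 after cadmium. With 15 counts over the 4 testes libraries it stood at 1.36 CPM, under the floor of every single sperm library. A lower level in sperm was therefore not detectable library by library, and over all 6 libraries Ddx25 was at least 2.16-fold lower.

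Boll, a DAZ-family protein of meiotic and later germ cells, was at 0 in the 4 control pools and had 1.74 and 0.80 FPKM in cadmium sperm. Control testes had 2.68 and 0.39 FPKM and cadmium testes 0.36 and 1.13. The cadmium sperm values are 2 and 1 counts, and the 8 counts of control testes 1 were all given to NM_001113367, while all other libraries that listed Boll gave theirs to NM_029267. Cadmium sperm 1 is also the sperm library that listed Sycp3, a spermatocyte gene, at 3.18 FPKM. Whether meiotic RNA took part in the Boll value was not tested. In cadmium sperm against cadmium testes its adjusted p was 0.608.

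Cpeb1, which binds the cytoplasmic polyadenylation element, had 0.26 FPKM in cadmium sperm 2 and 0 in the other 5 sperm libraries. Control testes had 0.11 and 0.63 FPKM and cadmium testes 0.69 and 0.12. Elavl1 (HuR), which stabilises messages, had 0.16 in control sperm 2, 0.13 in cadmium sperm 2, 0.12 and 0.16 in control testes, 0 in cadmium testes 1 and 0.12 in cadmium testes 2. Neither gene reached the 1 FPKM needed for a test, and each sperm value of either is 1 count. At this depth their presence or absence in sperm could not be read.

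Ordered by mean FPKM in control testes, Ybx3 at 53.9 and Ybx2 at 43.2 came first and overlapped each other. Tarbp2 at 4.23, Pabpc2 at 3.29, Paip2 at 2.27 and Pabpc1 at 1.89 followed with overlapping replicates, and Boll, Ddx25, Cpeb1 and Elavl1 ended the order. In control sperm Ybx2 at 17.1 lay above Ybx3 at 7.61, whose libraries overlapped with it.

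Cadmium effects on the 10 genes were tested in each tissue. In cadmium testes against control testes 7 genes were tested and 0 were called, with log2 fold changes from -0.93 (Boll) to 0.58 (Paip2). Among 26724 genes 0.0225% were called, or 6, with 226 at an unadjusted p under 0.05 and 5 called by DESeq2. Ybx2 changed by 0.05 ± 0.47 (SE) and Ybx3 by 0.22 ± 0.60 (SE), each with an adjusted p of 1.00. In CPM the ratio of cadmium to control testes was 1.03 for Ybx2 (95% counting interval 0.886 to 1.19) and 1.19 for Ybx3 (1.05 to 1.35), and the Ybx3 replicates of the control group alone spanned 25.3 to 82.5 FPKM. The difference in Ybx3 was smaller than this spread.

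In cadmium sperm against control sperm only Ybx2, Ybx3 and Tarbp2 could be tested, and 0 were called. Among 20640 genes 0.0824% were called, or 17, with 1354 at an unadjusted p under 0.05 and 10 called by DESeq2. The log2 fold changes were -0.25 ± 1.03 (SE) for Ybx2, 0.50 ± 1.22 for Ybx3 and 1.11 ± 1.96 for Tarbp2. Tarbp2 had an adjusted p of 0.247 without control sperm 2, which leaves control pools at 0, and its log2 fold change was 0.56 and 0.51 without control sperm 3 and 4 and 0.24 without cadmium sperm 2. The median of all genes stood at 0.43 in this comparison. For the effect of cadmium in sperm against that in testes, 0.0396% of 32814 genes were called, or 13, with 1236 at an unadjusted p under 0.05 and 0 by DESeq2. Of 7 members tested there 0 were called, and Ybx2 had a difference of log2 fold changes of -0.34 ± 1.16 (SE) and Ybx3 of 0.25 ± 1.14. With 2 or 3 libraries a group, such intervals leave room for changes of more than 2-fold in either direction, and these values do not show that cadmium left the genes unaltered.

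Related genes were taken from 3 lists. Of 30 paralogs and regulators of translation 27 were listed and 13 were tested in control sperm against control testes, where 2 were called higher in sperm and 4 lower, with a median log2 fold change of -0.44 beside -1.22 for all known mRNA genes and 21.9% called over all genes. In the cadmium libraries 13 were tested, 6 were higher and 3 lower, with a median of 1.28 beside -0.25 and 31.6% called over all genes. Cpeb2, a paralog of Cpeb1, had 5.27 to 16.02 FPKM in the control pools and 33.4 and 15.7 in cadmium sperm, against 0.34 to 0.89 in testes. Dicer1, which cuts double-stranded RNA and is the partner of Tarbp2, had 10.2 to 18.8 FPKM in sperm and 0.28 to 0.98 in testes. All 6 sperm libraries exceeded all 4 testes libraries for both genes, as for 1.88% of known mRNA genes.

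The log2 fold changes of Cpeb2 were 4.45 (adjusted p = 0.00293) in controls and 4.97 (adjusted p = 1.19e-12) with cadmium, and those of Dicer1 3.91 (adjusted p = 0.00244) and 5.29 (adjusted p = 1.21e-13). Cpeb2 was called in 13 of 14 and 9 of 10 alternatives, and Dicer1 in 13 of 14 and 10 of 10. Cpeb1 and Tarbp2 did not share this order, since Cpeb1 had at most 0.26 FPKM in sperm and Tarbp2 overlapped between the tissues. The difference between a gene and its paralog was not tested. The testis poly(A) polymerase Papolb was at 0 in all 6 sperm libraries and had 2.60 to 4.35 FPKM in testes, called lower in both comparisons (adjusted p = 0.0472 and 0.00243). The control call was kept in 6 of 12 alternatives, with adjusted p up to 0.640, and the cadmium call in 10 of 10. The initiation factor Eif4g3 was at 0 in sperm and had 1.63 and 1.42 FPKM in control testes (adjusted p = 0.0472, kept in 7 of 12 alternatives, up to 0.626). Papolb and Eif4g3 entered these tests through testes alone. Eif4g3 was also at 0 in both cadmium testes libraries, with an adjusted p of 0.0583 against control testes. Ago2 was lower in cadmium sperm than in cadmium testes, with -2.40 (adjusted p = 0.0364), a call kept in 5 of 10 alternatives and lost among others with DESeq2 (0.143) and without cadmium sperm 1 (0.208).

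Pabpc6, another poly(A)-binding protein gene, had 7.12 to 12.1 FPKM in the control pools, 8.41 and 2.50 in cadmium sperm and 0.82 to 1.90 in testes. Its log2 fold change was 2.54 (adjusted p = 0.166) in controls and 2.15 (adjusted p = 0.010) with cadmium. The cadmium call was lost with DESeq2 (0.0899), with both limma fits (0.211 and 0.249), in 1 model over 9 samples (0.225) and without cadmium sperm 1 (0.272) or cadmium testes 1 (0.406), and DESeq2 called it in controls (0.0223). It was chosen for mention after its values were seen. The related genes Pabpc4 and Paip2b went the other way, with log2 fold changes of -6.08 and -5.91 in controls (adjusted p = 0.0472 for both). They were at 0 in the control pools and entered that test through testes alone. In the cadmium libraries both had -1.64, not called (adjusted p = 0.255 and 0.259). These genes too were chosen for mention after their values were seen. Pabpc genes resemble each other in sequence, and how fragments that match several of them were divided is not given in the sources used here.

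**Figure D5:**
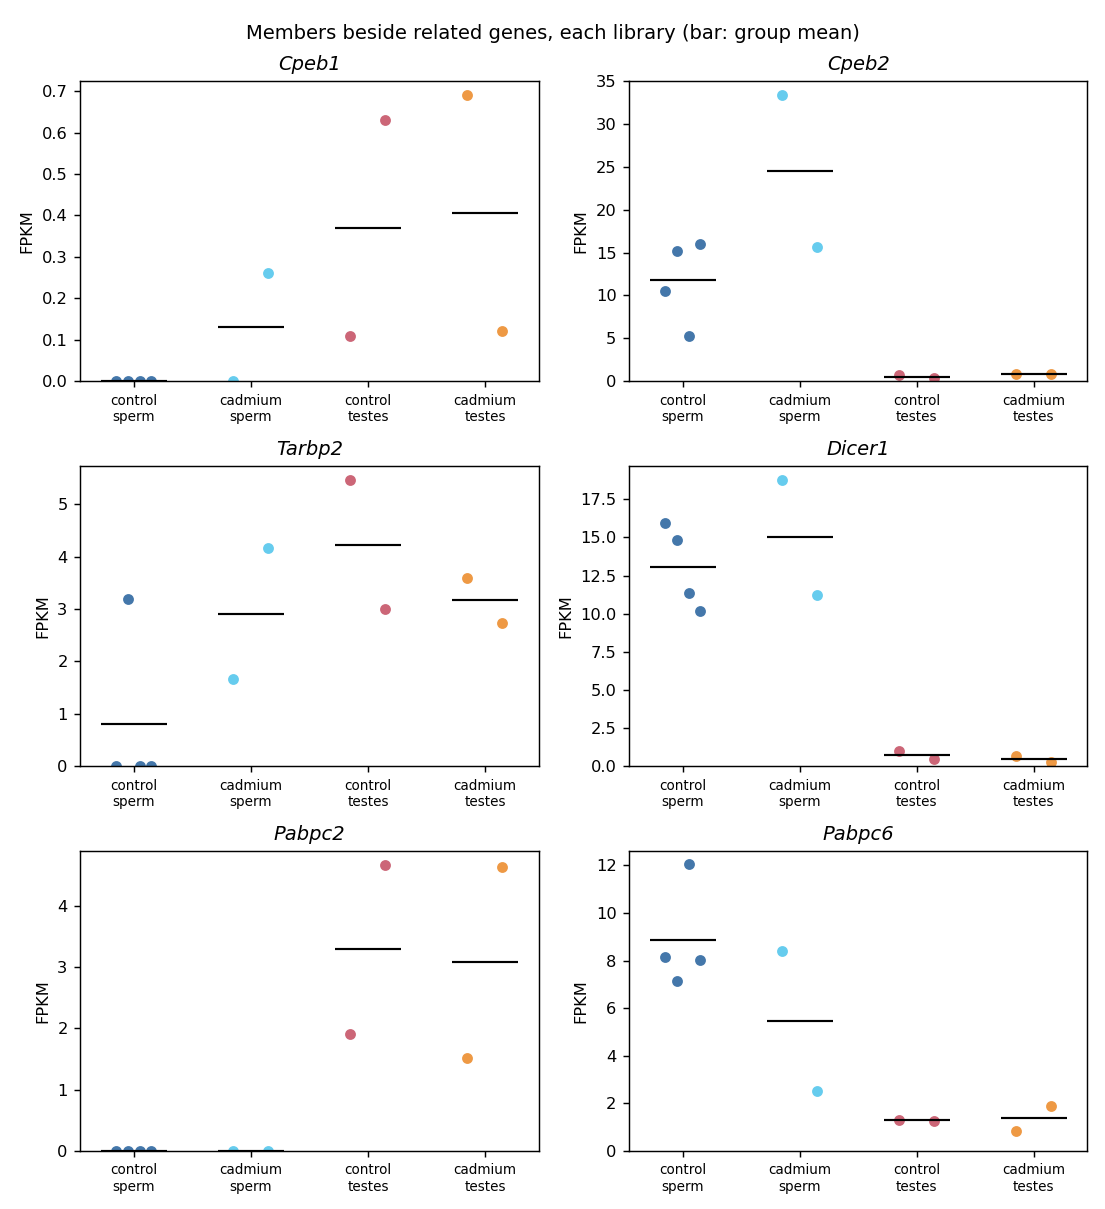
FPKM of Cpeb1, Tarbp2 and Pabpc2 (left) beside the related genes Cpeb2, Dicer1 and Pabpc6 (right) in each library (points) by group, with a bar at the group mean and a separate scale in each panel. The genes on the right are higher in every sperm library than in any testes library, whereas Pabpc2 is at 0 in all 6 sperm libraries. The related genes shown are a selection, and others such as Pabpc4 and Paip2b were lower in sperm.

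Of 33 genes of messenger ribonucleoproteins and storage granules, 11 were tested in controls and 2 were called lower in sperm, with 0 higher and a median of -1.86, beside 17.7% lower and a median of -1.24 over all genes. These were the germ-cell helicase Ddx4 and the RNA-binding protein Nanos3, both at 0 in the tested control pools and both with an adjusted p of 0.0472. Pabpc2, Paip2, Pabpc4, Paip2b, Papolb, Eif4g3 and Pgk2 share this value in controls. It is a tie of the adjustment just under 0.05, so these calls pass or fail together at that threshold. Ddx4 and Nanos3 entered the test through testes alone, and each call was kept in 4 of 11 alternatives, with adjusted p up to 0.786 and 0.809. In the cadmium libraries 10 were tested, with 1 higher and 3 lower and a median of -1.26, beside 31.6% called and a median of -0.30 over all genes. Caprin1 was higher, with 1.78 (adjusted p = 0.00696), and its partners G3bp2 and G3bp1 were lower, with -1.99 (adjusted p = 0.0125) and -1.60 (adjusted p = 0.0431). Of 12 alternatives Caprin1 was called in 8, G3bp2 in 5 and G3bp1 in 4, with adjusted p up to 0.283, 0.182 and 0.416.

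Of 18 messages known to be stored in spermatids, 17 were tested in controls, with 1 higher in sperm, 5 lower and a median of -2.31, beside 21.9% called, 17.7% lower and a median of -1.24 over all genes. In the cadmium libraries 16 were tested, with 1 higher, 6 lower and a median of -0.71, beside 31.6% called, 15.4% lower and a median of -0.30. Tnp1, which encodes a transition protein and is a classic stored message, had 0 to 4.89 FPKM in the control pools, 4.47 and 6.21 in cadmium sperm and 88.1 to 140.0 in testes, with log2 fold changes of -5.21 (adjusted p = 0.0172) and -4.25 (adjusted p = 3.2e-07). The control call of Tnp1 was kept in 7 of 14 alternatives and the cadmium call in 12 of 12. Pgk2 was at 0 in the tested control pools and entered the test through testes alone (adjusted p = 0.0472, kept in 5 of 11 alternatives, up to 0.760), and Ldhc was lower in cadmium sperm, with -4.38 (adjusted p = 3.43e-06, kept in 11 of 12 alternatives). The kinase gene Tssk6 was the one called higher in both, with 2.88 (adjusted p = 0.0464) and 2.02 (adjusted p = 0.00257), and its control call was kept in 2 of 14 alternatives and its cadmium call in 10 of 12. In cadmium testes against control testes and in cadmium sperm against control sperm, 0 genes of the 3 lists were called.

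Over the 10 libraries, the known mRNA genes most like Ybx2 among 1250 of at least 10 FPKM in at least 2 libraries were Gm3435, Gal3st3 and Sec14l2, with Pearson r of log2(FPKM + 1) of 0.964, 0.957 and 0.953. For Ddx25 they were Calm2, Pmf1 and Gkap1, with 0.894, 0.875 and 0.861. Ddx25 was listed only in control testes 2 and cadmium testes 1 and 2, at 8, 4 and 3 counts, so its correlations rest on those libraries. All 6 of the like genes were higher in testes than in sperm, which follows from the way they were chosen. The libraries share tissue and depth, so these values describe likeness over 10 points and carry no test.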

How the data were processed

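The 10 genes and the lists of related genes were chosen with earlier results of these data known. RNA was sequenced strand-specifically after removal of ribosomal RNA. The authors deposited, for each transcript above 0, an expected count (an estimate, not normalized) and an FPKM, fragments per kilobase scaled to library size. The study's methods name SOAPaligner/SOAP2 and the submitters' processing notes name HISAT and mm10, so which one made the tables is unsure, and the counting tool is not given in the sources used here. Both values were summed by gene, and unlisted transcripts were taken as 0. Summed expected counts were rounded and tested with edgeR 4.0.16 (quasi-likelihood, TMM, R 4.3.3) over genes of at least 1 FPKM in at least 2 libraries compared. Genes with a Benjamini-Hochberg adjusted p below 0.05 that also differed by over 2-fold were called. Standard errors were worked back from the F statistic. Count ratios carry exact 95% intervals. Alternatives used DESeq2 1.42.0, limma 3.58.1, other scalings, filters and libraries. The fit was tested on simulated data. Named related genes are those called, at most the 2 largest in each direction per list and comparison. The study calls the control samples biological replicates, but no source used here says this of the cadmium samples, so their p-values measure only the spread between these samples.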

Additional observations from a re-analysis of the deposited data

Results flagged for a closer look

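In control sperm, 1 of the 4 pools stood far from the other 3 for 3 of the 5 genes that any of these pools listed. Control sperm 2 had 3.18 FPKM of Tarbp2, 0.34 of Pabpc1 and 0.16 of Elavl1, and the other 3 pools were at 0 for each. The usual rate of about 1 in 20 by chance does not apply here, since any gene counted in 1 of 4 pools alone is set apart in this way. Control sperm 2 had the largest total of the 4 pools, and the Pabpc1 and Elavl1 values are 1 count each. The part of depth in these values was not tested.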

How the results depend on the processing

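The number of the 10 genes called in control sperm against control testes was 3. It fell to 0 with DESeq2, with upper-quartile scaling and with no filter on FPKM, to 1 with control sperm 1 added and the replicate number as a block, and lay between 0 and 2 when replicates were left out in turn. Both limma fits called 3 with Pabpc1 in place of Ybx3. In cadmium sperm against cadmium testes it was 2, rose to 3 (with Ybx2) under both limma fits, with known mRNA genes only and with the replicate block, and lay between 0 and 2 when replicates were left out. In the other 3 comparisons it was 0 under every alternative run. The cause of these losses was not tested. Upper-quartile scaling gave no value for the cadmium effect in sperm against that in testes.

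Some log2 fold changes that passed no test turned direction. For Tarbp2 in cadmium sperm against cadmium testes it was -0.092 with no filter on FPKM, -0.16 and -0.24 with limma on log2(FPKM + 1) and log2(FPKM + 0.1), -0.012 with known mRNA genes only and -0.24 in 1 model over 9 samples, and between -0.70 and 0.74 with a replicate left out. For Ybx2 in the cadmium effect in sperm against that in testes it was 0.022 with no filter and 0.13 with known mRNA genes only, and between -0.80 and 0.47 with a replicate left out. With replicates left out, Ybx3 lay between -1.23 and 1.05 there. In cadmium sperm against control sperm Ybx2 lay between -0.72 and 0.10 and Ybx3 between -0.091 and 1.15. In cadmium testes against control testes Pabpc2 lay between -1.30 and 1.02, Paip2 between -0.28 and 1.10, Ybx2 between -0.26 and 0.43 and Ybx3 between -0.48 and 1.60.

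Control sperm and control testes share mice by the study's methods, but no source used here ties samples of the same number to the same mice, and no comparison had 3 pairs. Deviations from the group means correlated at 0.71 between control and cadmium testes, 0.18 between cadmium sperm and cadmium testes, 0.01 and -0.06 between control sperm and control testes, and 0.02 and -0.09 between control and cadmium sperm. The replicate block took the calls over all genes from 6 to 89 in cadmium testes against control testes, with 0 of the 10 genes called, and from 8154 to 6893 in cadmium sperm against cadmium testes, with 3 of the 10 called (Ybx2, Ybx3 and Pabpc2). With control sperm 1 added it gave 1566 calls in control sperm against control testes, 12 in cadmium sperm against control sperm and 25 for the cadmium effect in sperm against that in testes.

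Over all genes, the 5353 calls in control sperm against control testes became 3123 with DESeq2, 364 with upper-quartile scaling, 1344 with no filter and 880 to 4338 with a replicate left out. The 8154 in cadmium sperm against cadmium testes became 4945 with DESeq2, 4288 in 1 model over 9 samples and 563 to 4886 with a replicate left out. The 6 in cadmium testes against control testes became 3 with upper-quartile scaling, 88 with no filter, 0 with limma or known mRNA genes only, and 4 to 29 with a replicate left out. The 17 in cadmium sperm against control sperm became 10 with DESeq2, 28 in 1 model, 3 with known mRNA genes only, 0 and 1168 with limma on log2(FPKM + 1) and log2(FPKM + 0.1), and 7 to 42 with a replicate left out. The 13 for the difference of cadmium effects became 0 with DESeq2, limma or known mRNA genes only, and 0 to 26 with a replicate left out.

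Depth limits the genes below 1 FPKM, where a sperm value is 1 or 2 counts, and values of 0 in sperm are floors and not absences.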
